A study of Mus musculus with 5 samples.

Results

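Histone H3 lysine 9 acetylation (H3K9ac) was examined at 10 genes of neural progenitor cells: the Sox factors Sox2, Sox4, Sox5, Sox6, Sox9, Sox11 and Sox12, the paired-box factor Pax6, and the intermediate filament genes Nes and Vim. They are 10 of 22380 protein-coding genes in the GENCODE vM1 annotation of the mouse genome, build mm9. Members were chosen by gene identity, with earlier results of these data known. Sox4 was also chosen on the positions of its peaks in these same lists, so every value that follows is a description. Peaks belonged to a gene if centred no more than 10 kb from a transcript start site, which gave 18 of 34286 peaks in the list from treated cells and 18 of 33355 peaks in the list from untreated cells.

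The study used STHdh Q111 cells, conditionally immortalised striatal progenitors from C57BL/6 mice that are homozygous for an expanded CAG repeat in the huntingtin gene (STHdhQ111/Q111), as a model of Huntington's disease. All cells were held in serum-free medium at the permissive temperature, and 2 samples received 4 mM 4-deoxypyridoxine (DOP), an inhibitor of sphingosine-1-phosphate lyase, for 24 h, while 2 samples received vehicle. Both conditions therefore carry the expanded repeat and were deprived of serum, and they come from a single cell line. The deposited values are 1 peak list per condition, so no spread between replicates could be computed, no test between conditions was possible, and a difference between the lists compares these lists and not the conditions. Each peak has an interval of 200 bp, a centre and a score whose definition is not given in the sources used here, and the depth per sample is unknown. The IgG control sample was not analysed here.

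Acetylation of H3K9 is placed by histone acetyltransferases and removed by histone deacetylases, and it marks the nucleosomes that flank the start sites of active genes. Sox proteins are transcription factors that bind DNA through a high-mobility-group domain related to that of the testis-determining factor Sry. Sox2 and Pax6 maintain neural progenitors, Sox9 acts in the switch from neuron to glia production, and the closely related Sox4, Sox11 and Sox12 act as progenitors become neurons, while nestin and vimentin are the filament proteins of dividing neuroepithelial cells.

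Of the 10 genes, 6 had at least 1 peak in either list (Sox4, Sox5, Sox6, Sox9, Sox12 and Vim), where 59.3% of all protein-coding genes did. Sox2, Sox11, Pax6 and Nes had none. The genes with peaks did not differ in 1 direction: the DOP-treated list had more peaks at Sox5 and fewer at Sox4, Sox9 and Vim, and at Sox6 and Sox12 the numbers were equal. Over the 13272 protein-coding genes with a peak, DOP-treated peaks outnumbered untreated ones at 32.5% and were outnumbered at 28.5%. Sox4 and Sox5 stood apart in position, because none of their peaks in one list overlapped a peak in the other.

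**Figure D1:**
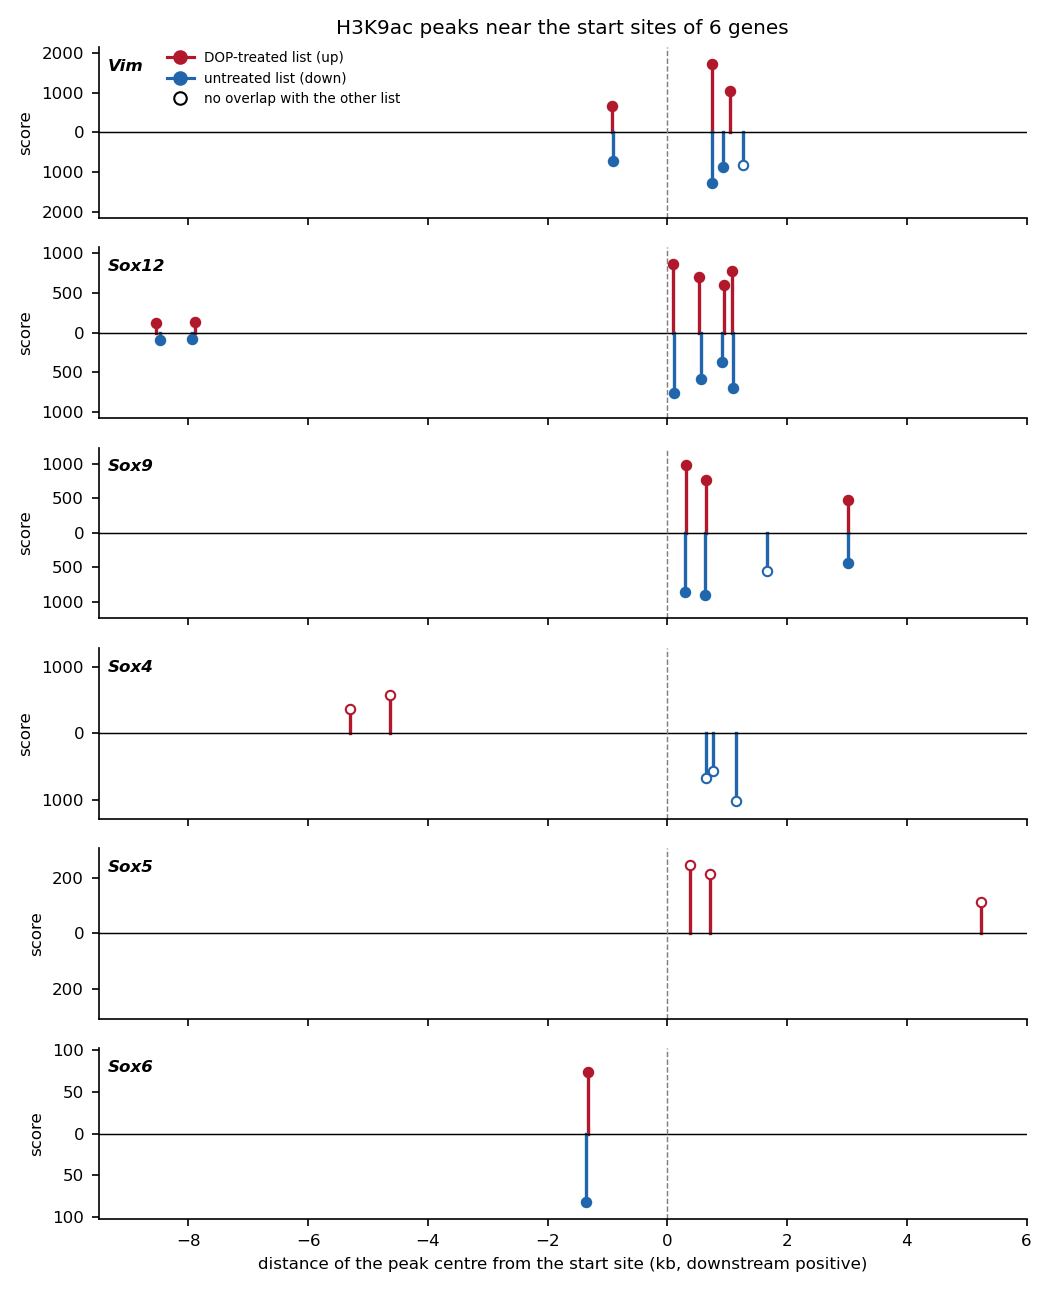
Peaks within 10 kb of the start sites of 6 genes, with the distance of each peak centre from the start site in kb on the horizontal axis and its score on the vertical axis. The DOP-treated list points up and the untreated list down, and the scale of scores differs between panels. Distances are from the first start site of each gene, and for Sox5 from an internal start site near its peaks. Open circles, which mark peaks without overlap in the other list, make up all of the Sox4 and Sox5 panels.

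Sox4, which encodes a transcription factor of early neurons and many dividing tissues, lies on the minus strand at chr13:29040788-29045582. In the DOP-treated list its peaks were centred 4631 and 5294 bp upstream of the first start site, outside protein-coding genes, with scores of 575 and 362. In the untreated list its peaks were centred 640, 763 and 1150 bp downstream of that start, in the single exon, with scores of 669.4, 573.8 and 1025.8. The peaks nearest the gene in one list therefore had no counterpart in the other, and the closest centres of the 2 lists were 5271 bp apart. The stronger DOP-treated peak ranked above 64.8% of its list and the weaker above 43.6%, while the untreated peaks ranked above 66.4% to 88.6% of theirs, so these were not peaks from the bottom of either list.

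The sequences of both DOP-treated Sox4 peaks and of the highest untreated one are shown because they are the separate sites that the lists give for this gene. They are plus-strand mm9 sequence, 5′ to 3′, with each CpG dinucleotide in capitals.
Sox4 DOP-treated, chr13:29050114-29050313: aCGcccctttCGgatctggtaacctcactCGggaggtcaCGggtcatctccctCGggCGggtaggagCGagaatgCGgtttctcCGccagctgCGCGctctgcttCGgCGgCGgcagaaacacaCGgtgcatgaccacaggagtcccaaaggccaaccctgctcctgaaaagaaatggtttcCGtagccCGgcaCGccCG
Sox4 DOP-treated, chr13:29050777-29050976: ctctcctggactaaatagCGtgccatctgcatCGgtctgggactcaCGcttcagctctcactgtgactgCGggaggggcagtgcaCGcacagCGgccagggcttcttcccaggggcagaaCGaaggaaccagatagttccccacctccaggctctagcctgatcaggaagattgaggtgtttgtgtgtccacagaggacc
Sox4 untreated, chr13:29044333-29044532: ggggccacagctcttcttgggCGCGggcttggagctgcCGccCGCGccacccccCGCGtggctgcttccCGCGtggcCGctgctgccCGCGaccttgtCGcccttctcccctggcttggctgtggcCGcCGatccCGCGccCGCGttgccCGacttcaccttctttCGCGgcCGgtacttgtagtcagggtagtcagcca
The stronger upstream interval held 19 CpGs in 200 bp at 63.0% G and C, and the weaker one 7 CpGs at 58.5%. The untreated interval, within the coding sequence, held 23 CpGs at 71.5%. The other untreated intervals held 25 and 27, against a median of 10 CpGs per peak over the whole DOP-treated list and 11 over the untreated list.

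The Sox4 region held few other peaks. The flanking peaks that did overlap between the lists lay 1097 kb apart, with 7 DOP-treated and 3 untreated peaks between them, and none of these overlapped the other list. A further DOP-treated peak lay 33.3 kb from the gene's starts, with a score of 108. Among 12375 genes with peaks in both lists, 0.461% had no overlapping pair, a share from which nothing is read because Sox4 was chosen on the separation of its peaks.

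Summed over its peaks, the Sox4 score was 2269 in the untreated list and 937 in the DOP-treated list. After the lists were scaled so that the median gene with peaks in both had a log2 ratio of 0, the Sox4 ratio was −1.38 (2.60-fold lower in the DOP-treated list), within the lowest 0.315% of genes. Only Sox4 among the 5 members with peaks in both lists passed a 1.5-fold difference, and none passed it in the higher direction. Of all genes with peaks in both lists, 2.19% passed it in the lower direction and 3.83% in the higher. Sox4 was chosen on the positions of these same peaks, so nothing is read from its rank or from its passing the limit. The Sox4 ratio depended on the peaks counted. It was −2.08 with a window of 5 kb, which leaves out the peak at 5294 bp, and −0.91 when only the highest score of each list was compared. The sums come from different sites, and the ratio does not say that acetylation at a given site differed by that amount.

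Sox5 encodes a Sox factor without an activation domain of its own that acts in cortical neurons and in cartilage. It spans chr6:143776945-144730497 on the minus strand with 12 annotated start sites. At the 10 kb window it was the only member with peaks in a single list. The DOP-treated list held 3 peaks, with scores of 115, 217 and 248, and the untreated list held none within 10 kb of a start. Each lay just inside an internal start site, at 91, 596 and 255 bp downstream, whereas the first start site was 293 kb from the nearest DOP-treated peak and 92.8 kb from the nearest untreated peak. All 3 were in the lower part of their list, above 12.1%, 25.8% and 30.0% of its peaks.

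Sequences of the adjacent pair of Sox5 peaks are shown because this internal site had peaks in the DOP-treated list and none in the untreated list. They are plus-strand mm9 sequence with CpG in capitals.
Sox5 DOP-treated, chr6:144157277-144157476: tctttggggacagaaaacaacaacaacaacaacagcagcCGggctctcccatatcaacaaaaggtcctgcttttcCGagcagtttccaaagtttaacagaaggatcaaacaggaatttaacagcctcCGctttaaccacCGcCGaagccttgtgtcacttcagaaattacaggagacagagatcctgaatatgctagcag
Sox5 DOP-treated, chr6:144157618-144157817: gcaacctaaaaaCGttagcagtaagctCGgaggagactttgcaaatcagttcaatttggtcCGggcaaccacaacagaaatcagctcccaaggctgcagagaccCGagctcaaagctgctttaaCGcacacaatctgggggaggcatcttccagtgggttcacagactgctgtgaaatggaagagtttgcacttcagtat
These intervals are intronic and held 5 CpGs each, at 45.5% and 49.0% G and C, below the 59.5% median of peaks in the list. The nearest untreated peak was 129522 to 134383 bp from the 3 Sox5 peaks. Over the whole gene body the lists held 5 DOP-treated and 4 untreated peaks, and the untreated peak nearest any start lay 20.9 kb away with a score of 24, above 0.456% of its list. Of genes with a peak, 4.03% had peaks in the DOP-treated list only. Of genes with a DOP-treated peak, 0.163% had at least 3 there and 0 in the untreated list. The cut of 3 and 0 equals the numbers seen at Sox5, so nothing is read from the 0.163%.

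Sox6, the partner of Sox5 in cartilage development, had a single weak peak in each list. It was centred 1322 bp upstream of the first start with a score of 74 in the DOP-treated list and 1362 bp upstream with 82 in the untreated list. These peaks overlapped and ranked above only 6.64% and 8.66% of their lists, and the scaled log2 ratio of the gene was −0.25. The untreated list had 2 peaks within the body of Sox6, which spans chr7:122614858-123182258, and the DOP-treated list had 0.

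Sox9, a factor of glial precursors and cartilage at chr11:112643538-112649074, was acetylated over its start and exons in both lists. The DOP-treated scores were 990.8 at 309 bp downstream of the first start, 770.2 at 647 bp and 474 at 3012 bp. The untreated scores at the matching positions were 853.6, 894.4 and 439, from centres 11 to 22 bp away. Another untreated peak with a score of 555 lay in a coding exon at 1668 bp, 1021 bp from any DOP-treated centre. The scaled log2 ratios of these pairs were 0.09, −0.34 and −0.02, without a common direction. The summed score was 2235 against 2742, a scaled log2 ratio of −0.40 with the unmatched peak included, and 0.07 when the highest scores of the lists were compared instead.

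Sox12, the third relative of Sox4 and Sox11, lies at chr2:152219347-152223782 on the minus strand and had the same number of peaks in both lists. All 6 DOP-treated peaks overlapped all 6 untreated peaks, with centres 7 to 62 bp apart. The scores of the 4 peaks over the gene were 857, 699.5, 597.9 and 773.5 with DOP and 753, 588.1, 365.9 and 699 without, in the order of distance from the start. Weak peaks 7886 and 8540 bp upstream scored 131 and 121 with DOP, against 81 and 94 for their untreated partners. Every pair was higher in the DOP-treated list, by scaled log2 ratios of 0.02 to 0.58, and the gene's summed score of 3180 against 2581 gave a scaled log2 ratio of 0.20. The quartiles of all genes were −0.14 and 0.16. The outermost Sox12 peaks, 8540 and 8478 bp upstream, were also the last ones inside the 10 kb limit, and the DOP-treated one lay nearer to a start of Zcchc3, at 8458 bp.

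Vim, which encodes vimentin, carried the strongest member peaks. It lies at chr2:13495554-13504453, and a coding-exon peak 748 bp downstream of the first start scored 1715.6 in the DOP-treated list, above 98.0% of peaks, and 1283 in the untreated list, above 94.0%. The next peak scored 1033.4 with DOP and 874.3 without, from centres 121 bp apart. An upstream peak at 925 bp scored 664 with DOP and 712 without. An intronic untreated peak with a score of 813.7 had no overlap, although the nearest DOP-treated centre was only 208 bp away, just past the width of an interval. This peak is part of the untreated sum of 3683, against 3413 with DOP, so the scaled log2 ratio of the sums was −0.21 although 2 of the 3 overlapping pairs were higher in the DOP-treated list. The ratio of the highest scores was 0.34, in the other direction.

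The upstream Vim interval is shown because its centre lay only 21 bp from that of its untreated partner, in contrast to Sox4, and because it was poor in CpG. It is plus-strand mm9 sequence with CpG in capitals.
Vim DOP-treated, chr2:13494530-13494729: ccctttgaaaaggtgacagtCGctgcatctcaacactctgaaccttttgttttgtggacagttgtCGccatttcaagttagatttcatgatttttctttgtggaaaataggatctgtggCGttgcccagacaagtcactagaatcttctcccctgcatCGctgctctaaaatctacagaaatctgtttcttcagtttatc
This interval had 4 CpGs and 41.5% G and C, so peaks at matching positions were not limited to CpG-dense sequence at this gene.

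**Figure D2:**
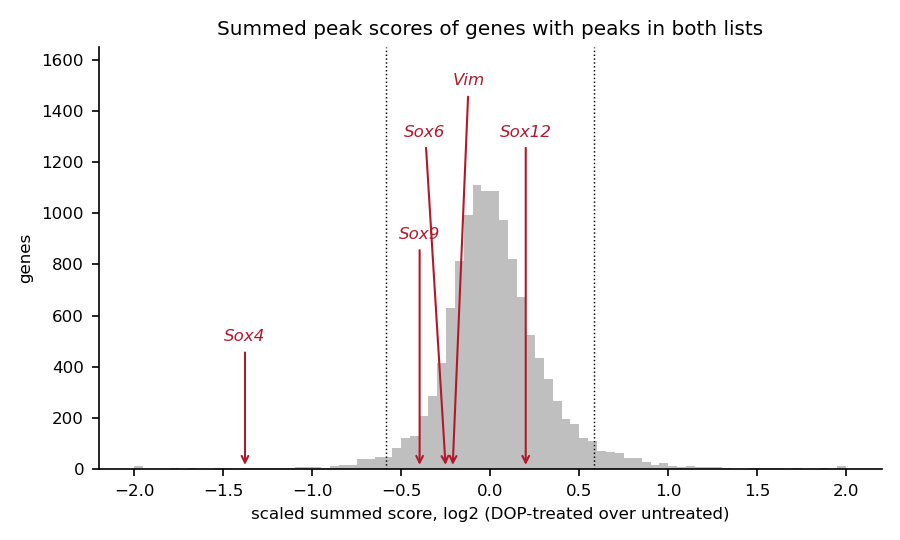
Histogram of the scaled log2 ratio of summed peak scores (DOP-treated over untreated) for 12375 genes with peaks in both lists, with genes past 2 in either direction drawn in the end bins. Arrows mark the 5 members and dotted lines mark a 1.5-fold difference. Sox4, at −1.38, is the only member outside the dotted lines.

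Overlapping peaks of the members sat at almost the same positions in both lists. The 13 member pairs, from Sox6, Sox9, Sox12 and Vim, had centres a median of 22 bp apart, and all 25377 mutual nearest pairs a median of 29 bp apart. The median scaled log2 ratio of member pairs was 0.09, with a range of −0.34 to 0.58, and 9 of 13 were above 0, 6 of them from Sox12. Over all pairs, 12688 of 25377 were above 0, a share fixed by the scaling to their median, and the quartiles were −0.22 and 0.25. Of the 18 member peaks in each list, 5 had no overlap in the other (27.8%), beside 20% of all DOP-treated peaks and 16.7% of all untreated peaks. The 5 in the DOP-treated list belonged to Sox4 and Sox5, and the 5 in the untreated list to Sox4, Sox9 and Vim. Sox4 held 2 and 3 of these peaks. Because it was chosen on the separation of its peaks, nothing is read from the member shares. Peaks of the same gene share a locus and are not independent.

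**Figure D3:**
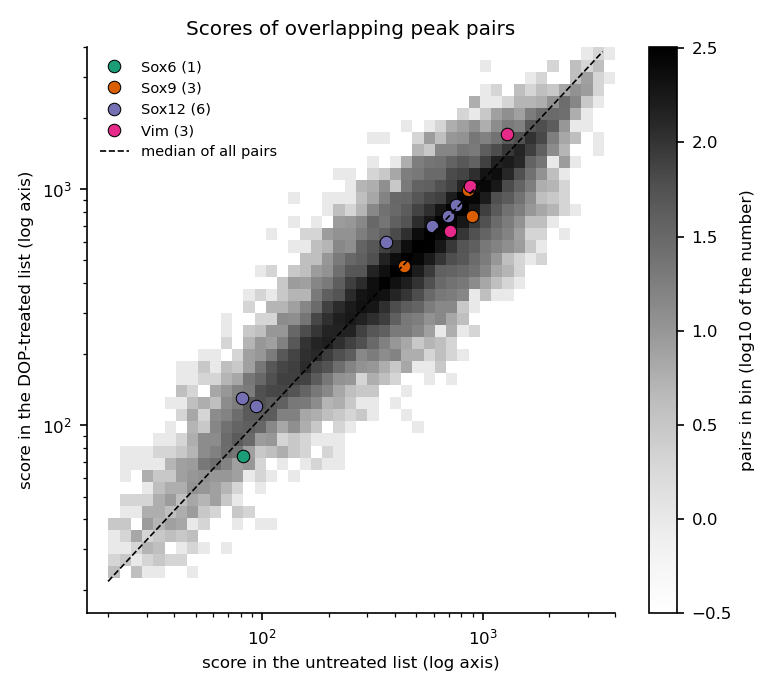
Scores of overlapping peak pairs, untreated list on the horizontal and DOP-treated list on the vertical axis, both logarithmic. Grey squares give the number of pairs per bin out of 25377, pairs beyond the axes not being drawn, coloured points the 13 member pairs (number per gene in the key), and the dashed line the median ratio of all pairs. The Sox12 points lie on or above the line, and Sox4 and Sox5 have no pair to draw.

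Sox2, Sox11 and Pax6, with no peak within 10 kb, also had none within 100 kb in either list, as did 18.7% of all protein-coding genes. Sox2, a factor of pluripotent and neural stem cells at chr3:34548927-34551383, was 569 kb from the nearest DOP-treated peak. The nearest untreated peak, 243 kb away, had a score of 23 and ranked above only 0.288% of its list. Sox11, at chr12:28025562-28027574, was 873 kb from the nearest peak of both lists, which lay at Cmpk2. Pax6, an eye and forebrain factor with 29 annotated starts at chr2:105509053-105543317, was 212 kb from the nearest peaks, at Elp4. These genes thus lay far from any peak in both lists, and the lists did not differ within 100 kb of them.

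Nes, which encodes nestin, at chr3:87775000-87784373, missed the limit narrowly. A peak centred 10.2 kb from its start was present at the same base in both lists, with scores of 363 (DOP) and 237 (untreated), above 43.7% and 30.1% of peaks, and it lay nearer to a start of Crabp2, at 8740 bp. The surroundings of Nes were rich in peaks, with 22 DOP-treated and 23 untreated peaks within 100 kb. The absence of a peak at Nes itself was therefore local, unlike that at Sox2, Sox11 and Pax6.

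Absence of peaks at these genes did not go with a lack of CpG at their starts. In the 500 bp on each side of the first start, 6 members were CpG-rich (at least 55% G and C and a CpG observed-to-expected ratio of at least 0.6), and 3 of the 6 had no peak within 10 kb. The G and C share was 63.9% at Sox2, 67.5% at Sox11 and 61.0% at Nes, with observed-to-expected ratios of 0.84, 0.97 and 0.75. Sox12, with 71.9% and 0.99, was similar in composition to Sox11 and had peaks in both lists. Pax6 fell just short at its first start, with 55.9% and 0.57, although 6 of its 29 starts were CpG-rich. Of 8598 protein-coding genes with a CpG-rich first start, 10.7% had no peak within 10 kb and 4.38% had none within 100 kb.

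The 200 bases upstream of the first starts of Sox2, Sox11 and Nes are shown because these are CpG-rich starts without a peak, with Sox12 as the relative that had peaks. Each is mm9 sequence along the gene's own strand, 5′ to 3′, with CpG in capitals.
Sox2, plus strand, chr3:34548727-34548926: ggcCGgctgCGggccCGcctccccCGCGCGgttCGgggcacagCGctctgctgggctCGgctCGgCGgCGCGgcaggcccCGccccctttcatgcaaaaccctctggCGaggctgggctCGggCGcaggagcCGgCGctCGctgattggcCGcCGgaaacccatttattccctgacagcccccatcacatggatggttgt
Sox11, minus strand, chr12:28027575-28027774: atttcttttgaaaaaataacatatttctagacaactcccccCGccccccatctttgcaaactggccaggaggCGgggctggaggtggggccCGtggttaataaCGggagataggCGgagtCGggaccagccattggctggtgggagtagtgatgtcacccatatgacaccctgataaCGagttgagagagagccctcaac
Nes, plus strand, chr3:87774800-87774999: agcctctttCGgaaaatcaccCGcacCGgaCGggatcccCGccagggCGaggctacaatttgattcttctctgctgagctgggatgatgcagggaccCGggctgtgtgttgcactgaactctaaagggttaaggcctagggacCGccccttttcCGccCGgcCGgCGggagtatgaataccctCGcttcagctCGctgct
Sox12, minus strand, chr2:152223783-152223982: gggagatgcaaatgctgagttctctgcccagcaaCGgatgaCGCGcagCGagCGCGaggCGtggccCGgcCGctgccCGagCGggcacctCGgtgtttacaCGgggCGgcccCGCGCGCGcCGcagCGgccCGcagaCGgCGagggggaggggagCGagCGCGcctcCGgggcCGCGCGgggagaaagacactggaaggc
The counts of CpG were 22 at Sox2, 7 at Sox11, 14 at Nes and 30 at Sox12, so the Sox11 sequence was sparse upstream of a start whose wider window was CpG-rich.

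**Figure D4:**
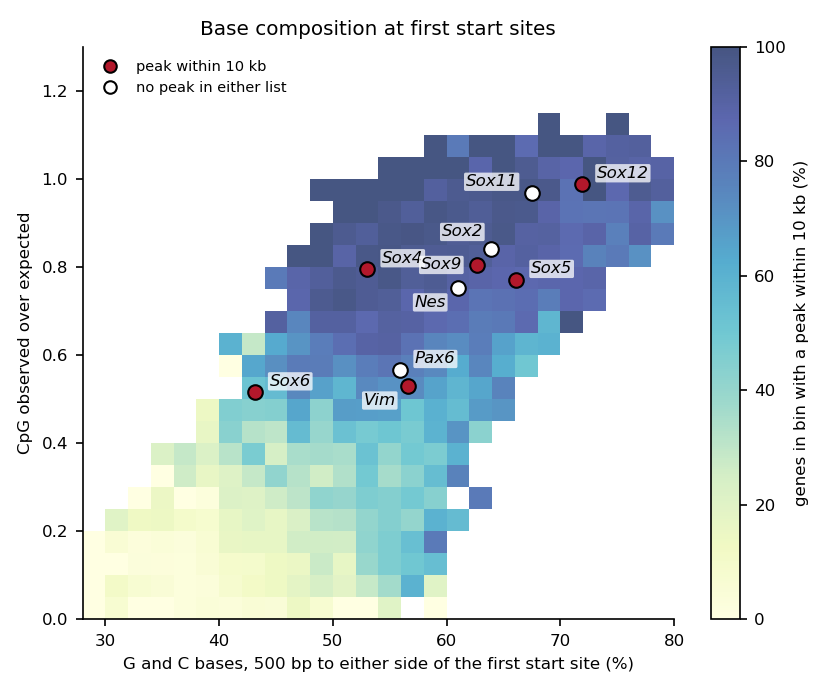
Base composition in 500 bp to either side of first start sites, with the percentage of G and C on the horizontal and the CpG observed-to-expected ratio on the vertical axis. The colour of each square is the percentage of genes with a peak within 10 kb, for squares of at least 5 genes, and points are the 10 members, filled where either list had a peak. Sox2, Sox11 and Nes, open, lie where most genes had peaks.

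Member peaks were somewhat richer in CpG than the lists as a whole, with a median of 13 CpGs per DOP-treated peak and 16.5 per untreated peak, beside 10 and 11 over all peaks. The sets are unlike, here and for the motifs below. Member peaks lie within 10 kb of a start by rule and come from 6 genes, whereas all peaks include distal ones. Of the 18 DOP-treated member peaks, 7 were centred in coding exons, 2 in UTRs, 2 in introns, 1 in a noncoding exon and 6 outside protein-coding genes. The untreated peaks were 10, 3, 1, 0 and 4 in the same order. Short motifs were searched on both strands of the 200 bp intervals. A Sox-type word (ACAAAG or AACAAT) was in 2 of 18 DOP-treated and 4 of 18 untreated member peaks, beside 14.1% and 14.0% of all peaks. The GC box GGGCGG was in 5 and 7 member peaks, beside 28.5% and 29.3%. Neither CCAAT nor TATAAA was in any member peak, where 13.9% and 3.21% of all DOP-treated peaks held them, and 13.6% and 3.26% of untreated peaks. Matches to such short words are not evidence of binding.

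Related genes outside the 10 members were counted in the same way. Of 12 other Sox genes, 4 had peaks, all in both lists (Sox8, Sox13, Sox15 and Sox18), with 9 DOP-treated and 7 untreated peaks in all, and only Sox15 passed 1.5-fold, with a scaled log2 ratio of 0.89. Of 24 other progenitor genes, 16 had peaks, beside 59.3% of all protein-coding genes, and 10 had them in both lists, with 47 DOP-treated and 41 untreated peaks and a median scaled log2 ratio of −0.01. Notch1, the receptor that keeps progenitors undifferentiated, was past 1.5-fold in the higher direction at 0.96, and genes past it in the lower direction included Gli3, a hedgehog pathway factor, at −0.77, and Ccnd1, a G1 cyclin, at −1.10. Hes1, a target of Notch, had 11 DOP-treated and 5 untreated peaks, while Fabp7, Slc1a3, Ccnd2 and Id4 had peaks in the DOP-treated list only and Lhx2 and Neurog2 in the untreated list only. These were 4 and 2 of 16 genes, beside 4.03% and 2.73% of all genes with a peak, and none of their peaks ranked above more than 34.3% of its list. The gene lists were chosen with earlier results of these data known, so nothing is read from these shares. Among 8 other intermediate filament genes, Des and Sync alone had peaks.

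The label of neural progenitors was checked against marker genes, to be read beside the 59.3% of all protein-coding genes that had a peak. Of the 10 members, which served as progenitor markers, 6 had a peak, and 16 of 24 other progenitor genes did. Sox2, Sox11, Pax6 and Nes had no peak within 10 kb in either list. Sox4, Sox9, Sox12 and Vim had several in both, Sox6 had 1 weak peak in each, and Sox5 had peaks in the DOP-treated list only. None of 5 neuron markers had a peak, 1 of 4 astrocyte markers did, and 2 of 6 oligodendrocyte lineage markers did. Of 6 mesenchymal markers, 5 had peaks (Col1a1, Col1a2, Col3a1, Twist1 and Prrx1), with 17 DOP-treated and 15 untreated peaks, and Thy1 had 0. Microglial and endothelial markers had peaks at 1 of 4 and 1 of 3 genes. The marker lists, too, were chosen with earlier results of these data known. A missing H3K9ac peak is not a measure of expression, and RNA was not analysed here.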

How the data were processed

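H3K9ac ChIP-seq of STHdh Q111 cells was deposited as 1 peak list per condition. The methods name Bowtie 2, mm9 and the peak caller GPS, whereas the labels' processing notes name BWA 0.7.10. The way the 2 samples per condition were combined, the use of the IgG sample and the threshold are not given in the sources used here. The methods count fewer peaks in each condition than these lists of 34286 (DOP-treated) and 33355 (untreated) hold. Which listed peaks the study counted is therefore unknown. The only measurement is the score that the authors deposited for each peak, whose definition is not given, and the depth is unknown, so no counting interval was computed.

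Start sites and exons came from GENCODE vM1 and sequence from NCBIM37 (mm9), and 0 peaks ran past a chromosome end. Sox4 has 2 gene records, which were pooled. Peaks were shared when intervals overlapped by at least 1 bp. Scores were summed per gene, and log2 ratios were scaled to a median of 0 over genes with peaks in both lists, a shift of 0.10. A percentile is a peak's rank within its list. The functions were tested on simulated peaks with known answers. All 10 members were named, and listed genes were named where they had peaks. The members and gene lists were chosen with earlier results of these data known. Sox1 and Map2, also listed, had no entry of that symbol in the annotation and were not analysed. Values of some listed genes and intervals are not reported here. Alternatives were other windows, sharing rules, scalings, start sets and score limits, the minimum score of 100 being added after the data were seen. Python 3.11.15, numpy 2.4.6, pandas 2.3.3 and matplotlib 3.10.9 were used.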

Additional observations from a re-analysis of the deposited data

How the results depend on the processing

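Of 79 alternative values, 73 moved by less than the limits set (1.5 times for a count, 1.5-fold for a ratio), 6 moved further and none past 1.5-fold changed sign. Below that limit, 3 log2 ratios changed sign when the highest score of a gene replaced the sum: Sox9 from −0.40 to 0.07, Vim from −0.21 to 0.34 and the median of the 5 members from −0.25 to 0.07, and Sox4 was −0.91. With a window of 20 kb, DOP-treated peaks outnumbered untreated ones at 2 members in place of 1, since Sox12 had 10 and 8, and Nes entered among those with fewer, with 1 and 2. With a minimum score of 100, chosen after seeing the data, this number was also 2, because the untreated list lost Sox12 peaks. Within the upper 50% of each list, the DOP-treated member peaks numbered 11 and the untreated ones 14, in place of 18 each. Sox5 then had no peak, and Sox12, with 4 and 3, was the member with more DOP-treated peaks. When centres within 2 kb counted as shared, 3 untreated member peaks were unmatched in place of 5, and these were the Sox4 peaks. Chained within 500 bp, the Sox4 cluster of the DOP-treated list held 1 peak in place of 2. With a window of 5 kb the Sox4 log2 ratio was −2.08 in place of −1.38. With a window of 1 kb, 5 members had a peak in place of 6, because Sox6 had none. Sox4 then had 0 DOP-treated and 3 untreated peaks, so it too had peaks in a single list and no ratio. No paired analysis was possible because each condition has 1 list, and for the same reason no sample could be left out. Unknown depth and score definition limit every comparison of weak peaks.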
